A study of Danio rerio with 2 samples.

Results

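Bile acids and bile alcohols are made from cholesterol in hepatocytes, secreted across the canalicular membrane into bile and taken back up from portal blood at the sinusoidal membrane. The cholesterol hydroxylase encoded by cyp7a1 starts the classic route of synthesis. In mammals the bile acid receptor encoded by nr1h4, also called FXR, lowers transcription of that gene when bile acids accumulate, in part through the corepressor encoded by nr0b2. In zebrafish the main bile salt is a sulfated bile alcohol, so sulfation takes much of the place that amino acid conjugation has in mammals.

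The genes described here are cyp7a1, cyp8b1, abcb11b, abcc2, slc10a1, nr1h4, nr0b2a and baat, genes of bile acid synthesis, transport and sensing. These 8 genes were chosen with earlier results of these data known. A row was found for 3 of the 8, cyp7a1, abcc2 and nr1h4, among 17963 genes in all, by matching the RefSeq accession of each row to a current zebrafish gene symbol. No row matched the other 5, namely the sterol hydroxylase gene cyp8b1, the canalicular bile salt pump gene abcb11b, the sinusoidal bile salt carrier gene slc10a1, nr0b2a and the conjugating enzyme gene baat. The name cyp8b1 now stands as a synonym of cyp8b1.1, which had no row either. Transcripts known by a GI number alone made up 7435 of the 17991 rows and could not be searched by name, so these 5 genes were not analysed here.

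Liver RNA was profiled by 3' SAGE, in which 1 short tag near the 3' end stands for 1 transcript. The arsenate library came from wild-type zebrafish aged 3 months, kept about 15 to a 3 L tank with sodium arsenate for 96 h and daily water changes, and the water library came from wild-type fish of the same age kept in water as controls. Both groups are described as wild-type siblings, and neither the arsenate concentration, the sex of the fish nor the number of livers per library is given in the sources used here. With 1 library per group, none of the differences described could be checked against replicates. Values are given as with arsenate or with water for the library they come from.

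The arsenate library held 4420935 tags and the water library 2592679. Levels are given in RPM, tags scaled to the library total, so that 1 tag equals 0.226 RPM with arsenate and 0.386 RPM with water. A gene was called higher or lower when it had at least 10 tags over both libraries and its ratio of RPM + 1, arsenate over water, was at least 2 or at most 0.5. The added 1 understates the ratio of low genes, so the plain ratio of RPM is given too, with a 95% interval that covers the counting error of independent tags only. All 8 hepatocyte markers with a row had tags in both libraries, and they went in both directions. Among them, apoa2 was at 6372 RPM with arsenate and 11174 RPM with water, and fgg at 13615 RPM with arsenate and 7653 RPM with water. Exocrine pancreas markers took 0.381% of tags with arsenate and 3.87% with water. Testis markers summed to 1.81 RPM with arsenate and 306 RPM with water.

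The entry enzyme of the pathway was nearly without tags with arsenate. The cyp7a1 gene had 2 tags with arsenate, or 0.452 RPM (0.0548 to 1.63, exact Poisson interval), and 38 tags with water, or 14.7 RPM (10.4 to 20.1). These intervals did not overlap. At the level of the water library, 64.8 tags would have been counted in the deeper arsenate library, where 2 were found. The plain ratio was 32.4-fold lower with arsenate, with a wide interval of 8.37 to 277 because it rests on 2 tags. On the RPM + 1 scale cyp7a1 was 10.8-fold lower, a log2 ratio of -3.43. Of the 7839 genes with at least 10 tags, 78 had a lower ratio on this scale.

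The bile acid receptor gene had the higher level with arsenate. The nr1h4 gene had 243 tags with arsenate, or 54.97 RPM (48.3 to 62.3), and 70 tags with water, or 26.999 RPM (21.05 to 34.1), intervals that did not overlap either. Its plain ratio was 2.04-fold higher with arsenate (1.55 to 2.70). The ratio of RPM + 1 was 1.999, which lies just under the limit of 2, so nr1h4 was not called. It passed that limit with a pseudocount of 0.1 RPM, at 2.03, and with totals that left out the 10 most abundant genes of each library, at 2.33. Among the genes tested, 15.6% had a higher ratio than nr1h4.

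The canalicular export pump gene abcc2, which in mammals secretes conjugated organic anions into bile, was at the limit of detection. It had 2 tags, or 0.452 RPM, with arsenate and 0 tags with water, where a count of 0 allows up to 1.16 RPM. Both values were under the 3-tag limit, so no ratio was computed, and a difference in abcc2 was not detectable at this depth.

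**Figure D1:**
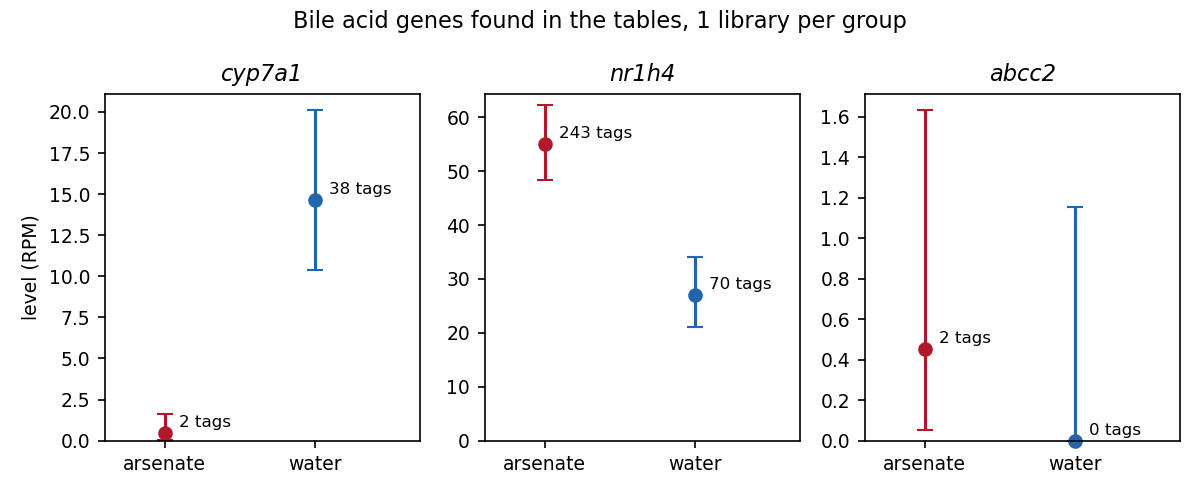
Level in RPM of cyp7a1, nr1h4 and abcc2 with arsenate (left) and with water (right), each panel with its own linear axis, with the tag count beside each point and bars for the 95% exact Poisson interval (for the 0 tags of abcc2, the bar ends at the 3-tag limit of 1.16 RPM). The bars of the libraries are apart for cyp7a1 (2 tags with arsenate, 38 with water) and for nr1h4 (243 tags with arsenate, 70 with water), and overlap for abcc2.

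Of the 3 members found, 2 had at least 10 tags, and of these 1 was called lower and 0 were called higher. Over all 7839 genes tested, 14.4% were called lower and 15.6% higher. Called in either direction were 29.9%. An exact binomial test on the tags is a comparison of the pair of libraries, not of arsenate with water as treatments. A call by it needed an adjusted p-value of at most 0.05 and also a plain ratio of at least 2 or at most 0.5. Under this rule cyp7a1 was called lower and nr1h4, with a plain ratio of 2.04, was called higher. Of all genes, 13.6% were called lower and 13.8% higher. With 2 members measured, these shares say nothing about the members as a set.

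Around the members, 154 other genes of bile acid synthesis, transport and regulation were listed. This list too was drawn up with earlier results of these data known, so its shares are a description only. A row was found for 86, and 57 had at least 10 tags. Of these 57, 17 were called lower with arsenate (29.8%, against 14.4% of all genes) and 6 higher (10.5%, against 15.6%), while 34 were neither. All 57 have a gene symbol, as do 5886 of the 7839 genes tested, and the rest are rows that matched none. Shares among the 5886 alone were not computed, so the background is not fully alike. The median log2 ratio of RPM + 1 was -0.38 over the 57 genes and 0.04 over all genes tested. When the totals left out the 10 most abundant genes of each library, 14 of the 57 were called lower and 8 higher. Of all 7839 genes, 975 were then called lower and 1680 higher. The medians were -0.18 over the 57 and 0.24 over all genes tested. With edgeR's exact test at an assumed coefficient of variation of 0.4, 0 of the 57 were called lower and 0 higher. Of all 7839 genes, that test called 186 lower and 102 higher. In bulk liver RNA, fewer cells of a type and less RNA per cell cannot be told apart. The hepatocyte markers, of which fabp10a is also among the 57, had a median of -0.67 over 8 genes, with fabp10a called lower and the other 7 neither. The plain ratio was above 1 for 3 of the 8 and below 1 for 5.

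**Figure D2:**
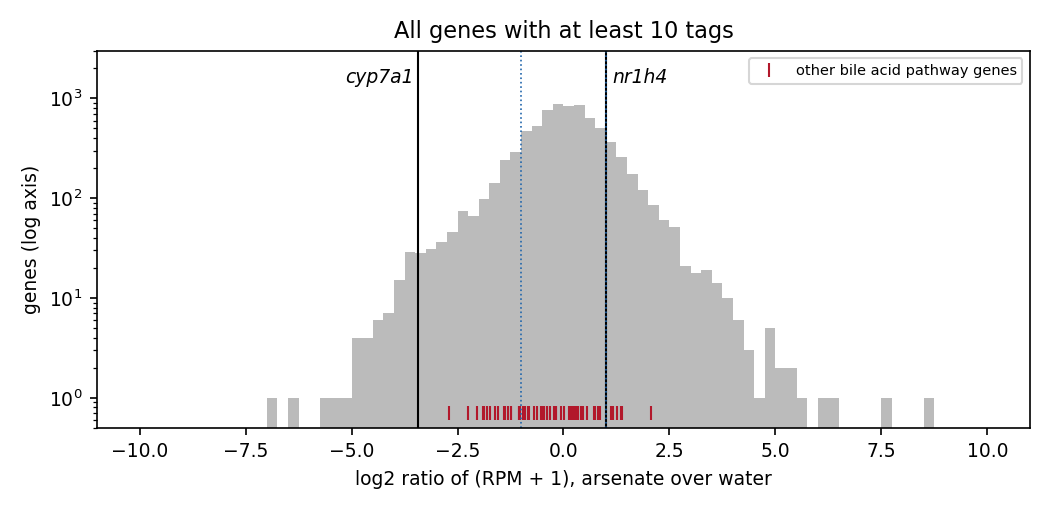
Number of genes (log axis) by log2 ratio of RPM + 1, arsenate over water, for the 7839 genes with at least 10 tags, with black lines at cyp7a1 and nr1h4, dotted lines at 2-fold and short red marks for the 57 other bile acid pathway genes. The cyp7a1 line at -3.43 stands in the left tail with 78 genes below it, and the nr1h4 line lies on the upper dotted line.

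Genes of synthesis and conjugation split in direction. Of 49 listed, 28 had a row and 20 at least 10 tags, with 7 lower, 5 higher, 8 neither and a median log2 ratio of -0.02. The shares of all genes tested were 14.4% lower and 15.6% higher. Each list by role is small to set against them. The dehydrogenase gene hsd3b7, whose enzyme modifies the sterol ring after the step of cyp7a1, had 493 tags, or 112 RPM, with arsenate and 1383 tags, or 533 RPM, with water. It was thus 4.78-fold lower with arsenate (4.31 to 5.31), in the same direction as cyp7a1 and with far more tags behind it.

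Side chain shortening takes place in peroxisomes, with enzymes that also serve fatty acids. The acyl-CoA synthetase gene slc27a2a stood at 49.3 RPM with arsenate and 327 RPM with water, 6.63-fold lower (5.71 to 7.73). The gene abcd3a, whose mammalian ortholog brings bile acid precursors into peroxisomes, stood at 504 RPM with arsenate and 1674 RPM with water, 3.32-fold lower (3.16 to 3.50). Of the later enzymes, the bifunctional enzyme gene hsd17b4 had 9 tags with arsenate and 17 with water, 3.22-fold lower (1.36 to 8.20). The thiolase gene scp2a was 2.07-fold lower (1.59 to 2.69), and its call was lost with totals that left out the 10 most abundant genes. Its paralog scp2b had 20 tags with arsenate and 3 with water, 3.91-fold higher (1.16 to 20.5), a call that was lost with the arsenate library thinned to the depth of the water library. Other genes were not called, with intervals that hold 1. They were acox3, at a plain ratio of 0.870 (0.540 to 1.42), acaa1, at 0.838 (0.504 to 1.41), and pex5, at 1.17 (0.314 to 5.32). The gene acot8, with 14 tags with arsenate and 4 with water, was not called either, at 2.05 (0.645 to 8.56). The racemase gene amacr had a row but no tag in either library, which allows up to 0.679 RPM with arsenate and 1.16 RPM with water.

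Sulfation genes also differed between paralogs. The gene papss2a, which encodes a synthase of the sulfate donor, stood at 14.02 RPM with arsenate and 54.4 RPM with water, 3.88-fold lower (2.86 to 5.32). The paralog papss2b stood at 82.1 RPM with arsenate and 37.0 RPM with water, 2.22-fold higher (1.77 to 2.81). The sulfotransferase gene sult2st1 was at 5.43 RPM with arsenate and 21.6 RPM with water, 3.98-fold lower (2.43 to 6.71), while sult2st2 was at 46.1 RPM with arsenate and 41.7 RPM with water. The sulfotransferase gene sult5a1 had 17 tags with arsenate and 3 with water. It was called higher on the RPM + 1 scale, at 2.25, but not by the exact binomial test, and the interval of its plain ratio (0.961 to 17.7) holds 1. How tags of close paralogs were assigned is not given in the sources used here, so these values are uncertain gene by gene.

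Other sterol hydroxylase genes with at least 10 tags were higher or within 2-fold with arsenate. The gene cyp46a1.3, of a family known in mammals for cholesterol hydroxylation in brain, stood at 29.6 RPM with arsenate and 10.8 RPM with water, 2.74-fold higher (1.81 to 4.29). Its neighbour in name cyp46a1.2 stood at 102 RPM with arsenate and 55.9 RPM with water, a ratio of 1.82 (1.51 to 2.21) that was not called, though it was with totals that left out the 10 most abundant genes. The paralog cyp46a1.4 had 14 tags with arsenate and 0 with water, and the counting interval of its ratio starts at 1.95. With the arsenate library thinned it fell under the minimum of 10 tags and was not tested, at a log2 ratio of RPM + 1 of 2.03, against 2.06 unthinned. The cyp8b1 paralogs cyp8b1.2 and cyp8b1.3 and the oxysterol hydroxylase gene cyp39a1 had 0, 2 and 0 tags with arsenate and 1, 3 and 2 tags with water, too few to compare.

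Genes of canalicular and biliary transport were mostly within 2-fold. Of 22 listed, 13 had a row and 7 at least 10 tags, with 1 higher, 0 lower, 6 neither and a median log2 ratio of -0.05. Most genes tested were within 2-fold as well, with 29.9% called in either direction, so 7 genes show no trait of this list. The gene called higher was tmem30ab, which encodes a partner subunit of lipid flippases of the plasma membrane, at 47.3 RPM with arsenate and 19.3 RPM with water, 2.45-fold higher (1.79 to 3.41). Its paralog tmem30aa was at 14.9 RPM with arsenate and 8.49 RPM with water, a ratio of 1.76 (1.07 to 2.99). The efflux pump gene abcg2c was at 7.92 RPM with arsenate and 15.04 RPM with water, a ratio of 0.526 (0.324 to 0.853) that was not called. Under 10 tags, as for abcc2, were found for abcb4, with 3 tags with arsenate and 1 with water, and the sterol exporter gene abcg5, with 2 tags in each. Biliary markers had a median log2 ratio of 0.19 over 7 genes, with 2 higher and 0 lower, and summed to 5691 RPM with arsenate and 1831 RPM with water, of which krt18a.1 made up 4765 RPM with arsenate and 1043 RPM with water. Their part in these values was not tested.

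Of 32 genes listed for sinusoidal and intestinal transport, 11 had a row and 7 had at least 10 tags. They were 3 lower, 0 higher and 4 neither, with a median log2 ratio of -0.62. The list is not of membrane carriers alone, and of its genes called lower only abcc4 encodes a membrane transporter. Beside these few genes, 14.4% of all genes tested were called lower and 15.6% higher. The gene slc51a, which encodes a subunit of the organic solute transporter and is a target of FXR in mammals, stood at 893 RPM with arsenate and 699.7 RPM with water. That was 1.28-fold higher (1.21 to 1.35), an interval away from 1 but well within 2-fold, and with a smaller ratio than nr1h4. The efflux pump gene abcc4, which in mammals exports bile acids back to blood, stood at 30.8 RPM with arsenate and 74.1 RPM with water, 2.41-fold lower (1.92 to 3.02). The epoxide hydrolase gene ephx1 stood at 47.3 RPM with arsenate and 125 RPM with water, 2.64-fold lower (2.21 to 3.15). The gene fabp10a, whose product binds bile acids and fatty acids in hepatocytes, was the third gene called lower and had the most tags of the list in both libraries, with a plain ratio of 0.243 (0.241 to 0.245). The ileal bile acid carrier gene slc10a2 had 0 tags with arsenate and 2 with water. Enterocyte markers summed to 149 RPM with arsenate and 302 RPM with water, of which apoa4b.2 made up 142 RPM with arsenate and 245 RPM with water. Of the 4 enterocyte markers measured, 3 were called lower, 0 higher and apoa4b.2 neither, with a median log2 ratio of -2.30. Of their 7 genes with a row, slc10a2 among them, 3 were at 0 tags with arsenate and 1 with water, and the fatty acid binding gene fabp2 was at 1.36 RPM with arsenate and 19.7 RPM with water. Their part in the levels of the transport genes was not tested.

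**Figure D3:**
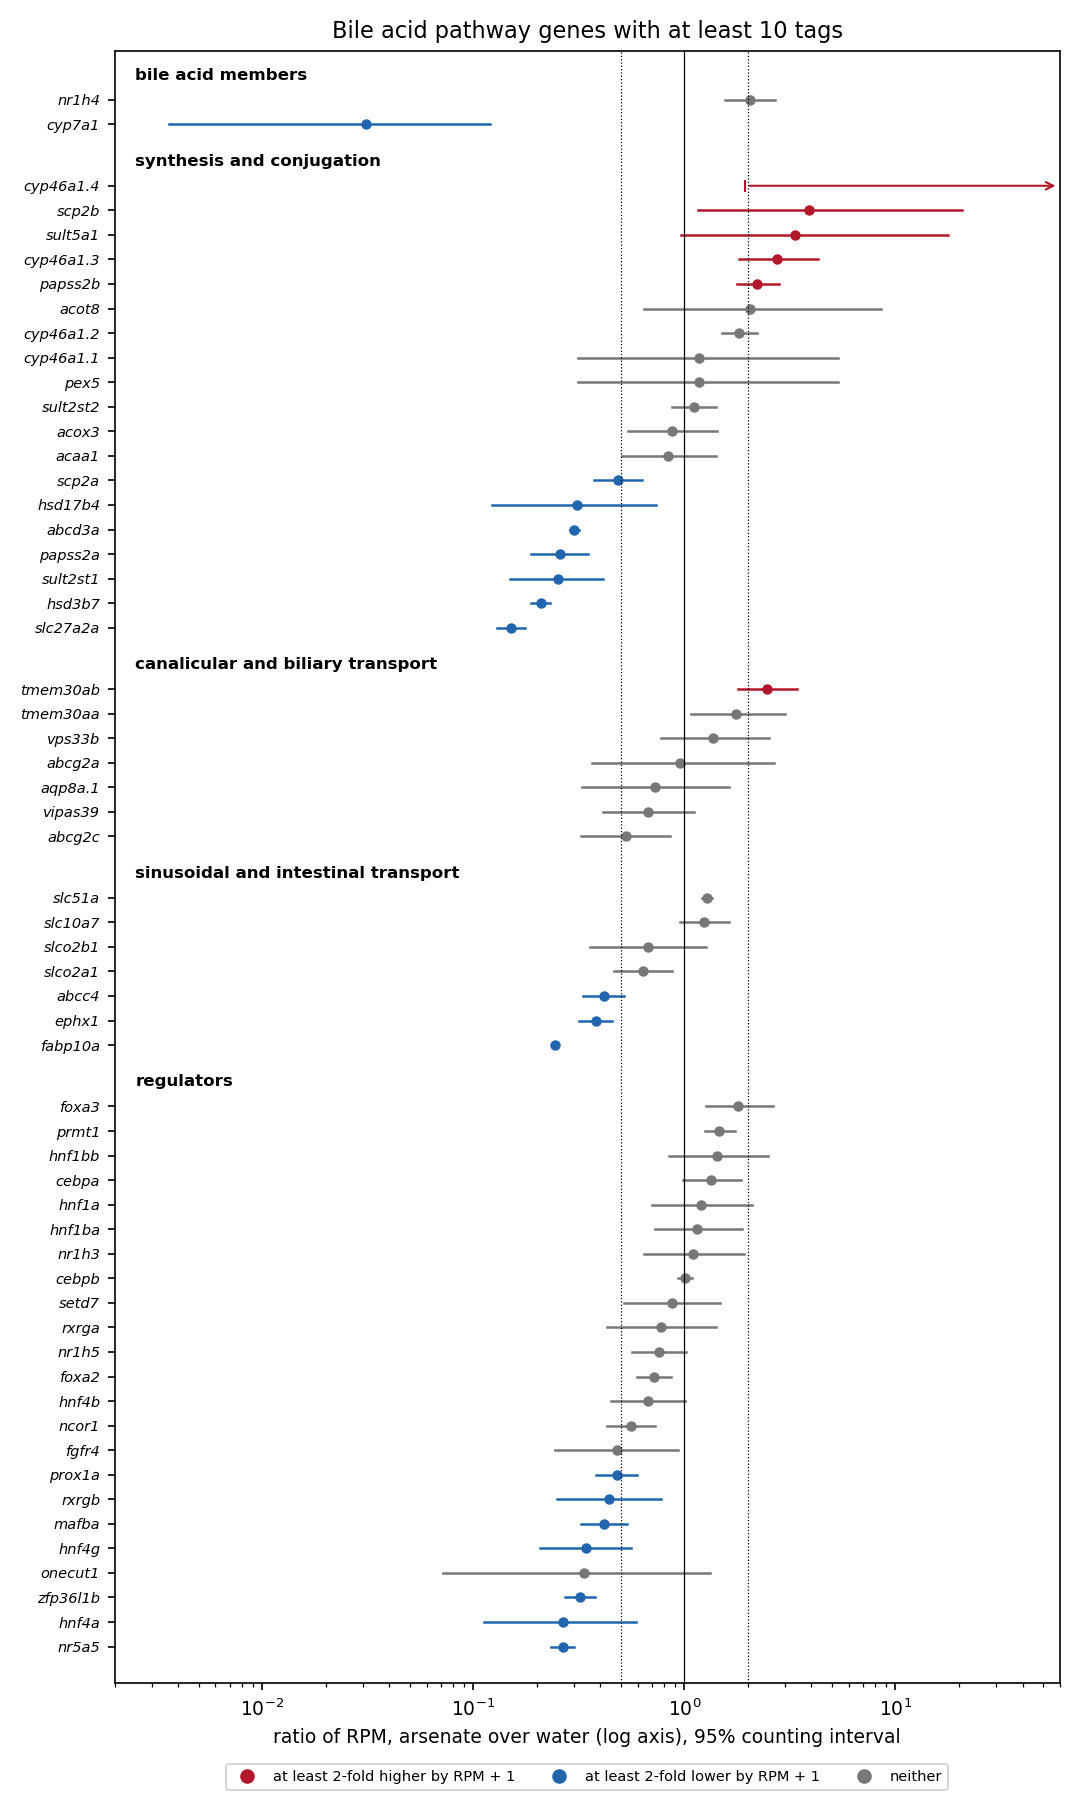
Plain ratio of RPM, arsenate over water, on a log axis for cyp7a1, nr1h4 and 56 of the 57 other bile acid pathway genes with at least 10 tags, grouped by role. Points are ratios, lines are 95% counting intervals (an arrow marks cyp46a1.4, with 0 tags with water), dotted lines stand at 0.5 and 2, and colours give the call by RPM + 1. The point of cyp7a1 lies farthest to the left, with an interval of the ratio from 0.00361 to 0.119, and slc27a2a and hsd3b7 follow among the other genes.

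The other regulators of the pathway were lower or within 2-fold on the RPM + 1 scale, on which nr1h4 was also within 2-fold, at 1.999. Of 51 listed, 34 had a row and 23 at least 10 tags, with 7 lower, 0 higher, 16 neither and a median log2 ratio of -0.47. The shares of all genes tested were 14.4% lower and 15.6% higher. The nuclear receptor gene nr5a5, of the NR5A family whose mammalian member LRH-1 acts on CYP7A1 transcription, stood at 83.0 RPM with arsenate and 314 RPM with water, 3.78-fold lower (3.34 to 4.28). The gene zfp36l1b, which encodes a protein that destabilises mRNA, stood at 52.03 RPM with arsenate and 162 RPM with water, 3.12-fold lower (2.65 to 3.68). The homeobox gene prox1a was 2.097-fold lower (1.68 to 2.62), and its call was lost with totals that left out the 10 most abundant genes. The Maf family gene mafba was 2.40-fold lower (1.87 to 3.10). In the other direction, foxa3 had a plain ratio of 1.80 (1.26 to 2.62). It was not called with the library totals, and was called higher where its log2 ratio over the scalings was highest, at 1.03.

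The hepatocyte nuclear receptor gene hnf4a, a known activator of bile acid synthesis genes in mammals, had 10 tags with arsenate and 22 with water, 3.75-fold lower (1.705 to 8.87). Its paralog hnf4g was 2.92-fold lower (1.80 to 4.84), and hnf4b was at 12.4 RPM with arsenate and 18.5 RPM with water. The retinoid X receptor genes, whose products pair with FXR, had few tags. The gene rxrgb was at 5.43 RPM with arsenate and 12.3 RPM with water and was called lower, with the call lost under totals that left out the 10 most abundant genes, and rxrga was at 6.56 RPM with arsenate and 8.49 RPM with water.

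Other nuclear receptors near nr1h4 in function were within 2-fold. The second FXR-type receptor gene nr1h5 had a ratio of 0.756 (0.562 to 1.02) and the liver X receptor gene nr1h3 one of 1.096 (0.646 to 1.91), and both intervals hold 1. The gene fgfr4, whose mammalian ortholog is the hepatocyte receptor for the ileal hormone FGF19, had 18 tags with arsenate and 22 with water, a plain ratio of 0.480 (0.243 to 0.937) that was not called on the RPM + 1 scale. Besides nr5a5, the regulators with the most tags were cebpb, at 378 RPM with arsenate and 375 RPM with water, a ratio of 1.01 that fell below 1 with TMM scaling, and the methyltransferase gene prmt1, at 119 RPM with arsenate and 81.0 RPM with water, a ratio of 1.47 (1.25 to 1.73).

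Markers of other tissues were lower with arsenate beside the members. Exocrine pancreas markers were called lower in 18 of 21 measured, with 0 higher and a median log2 ratio of -2.94, and testis markers in 4 of 4, with a median of -5.07. The testis genes insl3 and sycp1 had 2 tags each with arsenate, against 444 and 116 with water. Leaving all pancreas, enterocyte and testis markers out of the totals gave cyp7a1 a ratio of RPM + 1 that was 11.2-fold lower and nr1h4 a ratio of 1.93. The part of these tissues in the level of cyp7a1 was not tested.

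**Figure D4:**
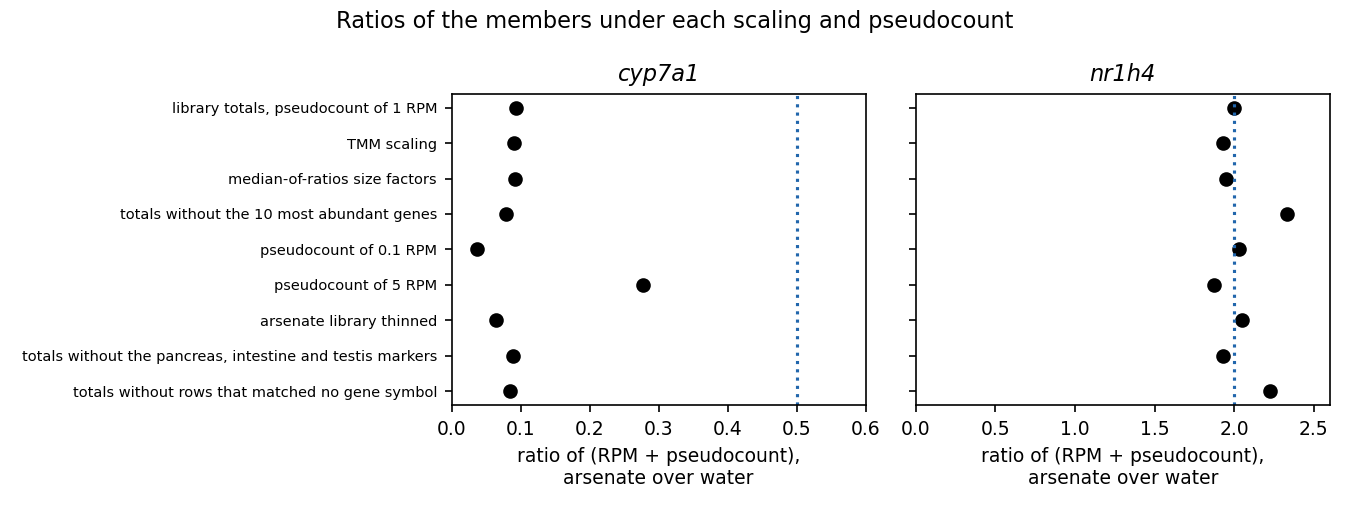
Ratio of RPM plus the pseudocount, arsenate over water, of cyp7a1 (left) and nr1h4 (right) under each scaling and pseudocount, with dotted lines at the limits of 0.5 and 2. The cyp7a1 points lie between 0.0374 and 0.277, all under its limit, whereas the nr1h4 points lie between 1.87 and 2.33, on both sides of its limit.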

How the data were processed

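Each library has a table of transcripts with a column that the authors headed TPM. It was read as RPM as deposited, since 100% of the values listed came out as whole tags (tolerance 0.01 tags) and no length scaling shows. Blanks were read as 0 tags. Libraries were made by the standard SOLiD protocol, per the labels' protocols. Not given in the sources used here are the mapping tool, the reference release, filters, whether fish were pooled and how tags shared by paralogs were treated.

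Of 10556 rows with a RefSeq accession, 9463 matched 1 gene symbol in RefSeq's table for GRCz12tu, from which no coordinates were taken. Rows sharing a symbol were summed. Rows that matched a symbol took 73.2% of tags with arsenate and 81.3% with water.

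Ratio intervals are 95% Clopper-Pearson intervals, converted from the share of a gene's tags found with arsenate. PCR copies are not independent molecules, so they cover counting error only. The limit for a count of 0 is 3 tags.

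The members and lists were chosen with earlier results of these data known. Named genes were the members, the 3 with the most tags in each list and up to 4 called ones with the most tags, and called sets of 5 or fewer. The result of a gene that the rule selects is not reported here. The other genes named, among them scp2a, hsd17b4, papss2a, sult2st1, hnf4a, hnf4g, rxrgb, fgfr4 and the marker genes, were chosen after their values were seen. There was no design with replicates to test.

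Alternatives used edgeR 4.0.16 and DESeq2 1.42.0 in R 4.3.3 for scaling, and edgeR's exact test at a coefficient of variation set to 0.4 by assumption. The rest used Python 3.11.15 (scipy 1.17.1, numpy 2.4.6, pandas 2.3.3, matplotlib 3.10.9) and was tested on simulated libraries.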

Additional observations from a re-analysis of the deposited data

How the results depend on the processing

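No paired analysis was possible because each group has 1 library, and no library could be left out. Totals without the pancreas, intestine and testis markers and totals without unmatched rows were chosen after seeing the data. The member cyp7a1 was called lower under 14 of 15 alternatives, edgeR's exact test with the assumed variation included. Of these, a minimum of 1 tag, a fold of 1.5 and a pseudocount of 0.1 RPM could not change its call. Nor could the transcript with the most tags in place of summed rows. At 10.8-fold lower, cyp7a1 was also bound to pass a fold of 4. The changes of minimum, fold and transcript left the ratios of cyp7a1 and nr1h4 as they were. With a minimum of 50 tags cyp7a1 was not tested, which left 0 members lower. The log2 ratio of cyp7a1 was -1.85 with a pseudocount of 5 RPM, and its 8 other alternatives stayed within its counting interval. The receptor gene nr1h4 stayed above 1 in all 15, though only the 6 scalings, thinning among them, could have moved it below 1. It was called higher, making 1 member higher, in 6. Among these were totals without the 10 most abundant genes, totals without unmatched rows and thinning of the arsenate library. The others were a pseudocount of 0.1 RPM, a fold of 1.5 and the exact binomial test. With a minimum of 50 tags, 44 of the other pathway genes were tested, with 3 higher and 15 lower. Of the 57 other pathway genes, counts higher and lower were 3 and 12 with a pseudocount of 5 RPM, 10 and 23 at 1.5-fold, and 1 and 3 at 4-fold. With the assumed variation 0 were higher and 0 lower. Over all genes, counts higher and lower were 713 and 565 of 4433 tested with 50 tags. Of 7839 tested, they were 580 and 610 with a pseudocount of 5 RPM, 2176 and 1913 at 1.5-fold, and 303 and 351 at 4-fold. With the assumed variation they were 102 and 186. These counts follow from the stricter or looser rules. At 4-fold the share of the 57 called lower, 3 genes, was near that of all genes, 351 of 7839. Totals without the 10 most abundant genes gave 1680 higher and 975 lower, or 63.3% higher in place of 52.1%. Over the 6 scalings, 4 of the 57 genes changed sign (abcg2a, acox3, cebpb and setd7), all within 2-fold in each. At this depth abcc2 could not be compared, and no alternative addresses variation between fish.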
